A study of Mus musculus with 30 samples.

Results

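The genes of the cytosolic ribosomal proteins were followed on 30 Affymetrix mouse arrays over 8 times in KH2 mouse embryonic stem cells. Members were the genes with a probe set (a group of probes read as 1 value) annotated with 1 symbol that starts with Rpl or Rps followed by a digit, a or p. S6 kinase and pseudogene symbols were left out. The probe set with the highest mean over all arrays stood for the gene. This gave 50 genes, 26 with Rpl symbols (large subunit) and 24 with Rps symbols (small subunit), out of 18193 genes measured. They came from 106 probe sets: 26 members had 1 and 24 had more. A further 110 probe sets list ribosomal protein symbols together with other symbols. They name 46 ribosomal protein genes, of which 31 have no probe set of their own and are therefore not among the members; Rplp1, the third stalk protein, is also not a member.

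KH2 is an established mouse embryonic stem cell line. It was grown here on feeder cells, and differentiation was induced with retinoic acid, which the protocol gives at 0.3 uM. Arrays at 8 h carry the label baseline and those from 12 h to 72 h the label retinoic acid; whether retinoic acid was present at 8 h is not stated. No other genotype or agent is labelled, and every group is the same line. Before lysis the cells were trypsinised and plated again on gelatin for 30 minutes, and the labels describe in 2 ways which cells were then taken. From each sample 200 ng of RNA was labelled with biotin.

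Each of the times 8, 16, 36, 48, 60 and 72 h has 3 arrays, lettered A to C. The times 12 h and 24 h have 6 each, lettered A to F, and were handled as an A-C group and a D-F group. A spike-in control (BioDn 5' minus BioC 5', log2) was 0.99 to 1.07 on the 12 arrays of 8 h, 12 h A-C, 16 h and 24 h A-C. It was 1.34 to 1.63 on the other 18 arrays, which are the D-F arrays and all arrays from 36 h on. These are called the first and second array sets here. Tested comparisons over time stay within 1 set except where arrays are said to be pooled. Every value is a log2 intensity as the authors normalised it. Array medians lay between 6.34 and 6.39, lower quartiles between 4.73 and 4.85, and the highest value on an array between 15.18 and 15.25. The labels do not say that the 3 arrays of a group came from separate cultures, so each p-value reflects the spread among these arrays alone, which may be technical. Of 10 pluripotency markers, 8 were lower at 24 h A-C than at 8 h and 9 were lower at 72 h than at 12 h D-F; of 6 measured retinoic acid response genes, 6 were higher at 24 h A-C, and 3 were higher and 1 lower at 72 h.

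The ribosome is built of ribosomal RNA and proteins of a small and a large subunit. Rpl proteins belong to the large subunit, where peptide bonds form, and Rps proteins to the small subunit, which reads the mRNA. Ribosomal protein mRNAs are among the most abundant in growing cells, and many begin with a run of pyrimidines, the 5' TOP, through which the mTOR pathway and the protein LARP1 control their translation.

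Start regions were read from the RefSeq promoter table (GRCm38.p6), which holds 52 windows for 44 members. Rps14, Rps20, Rps29, Rpl7, Rpl8 and Rps4l have no entry there. A 5' TOP, taken as a C followed by at least 4 C or T, began at the annotated start base in 8 of 52 member windows (15.4%) and in 2.5% of all 32851 windows. Within 10 bases of the start on either side it was found in 28 member windows (53.8%) against 30.7% of all. CGGAAG, the core recognised by ETS factors, occurred on either strand of 32 member windows (61.5%) against 16.9% of all, and GCCATNTT, the YY1 core, in 8 (15.4%) against 6.1%. These letters are a description and not evidence of a site. The lines that follow show 10 bases before and 20 bases from the annotated start of 5 members that begin with a 5' TOP, with the tract in capitals, and of 3 members described later with none at the start base.
Rplp2, chr7:141447641-141447670, plus strand: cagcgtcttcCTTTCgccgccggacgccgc
Rpl38, chr11:114668570-114668599, plus strand: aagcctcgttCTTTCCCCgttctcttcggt
Rpl14, chr9:120571507-120571536, plus strand: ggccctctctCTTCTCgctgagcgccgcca
Rps6, chr4:86857348-86857377, minus strand: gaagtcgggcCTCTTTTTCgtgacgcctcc
Rps27, chr3:90213629-90213658, minus strand: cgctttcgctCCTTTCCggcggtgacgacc
Rpl12, chr2:32961702-32961731, plus strand: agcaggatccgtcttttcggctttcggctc
Rpl3l, chr17:24727816-24727845, plus strand: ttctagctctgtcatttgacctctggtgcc
Rpl39l, chr16:10170218-10170247, plus strand: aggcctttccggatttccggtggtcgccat
Genes with and without a tract at the start base are found both among members that fell and among members that were nearly flat.

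Most members lay near the top of the array scale. Of the 50, 35 had a mean over all arrays of 14.09 to 14.95, and 15 had a mean of 3.55 to 13.33. The split at 14 was chosen after the values were seen. Over the 10 groups, the range of a member's group means had a median of 0.132 in the 35 bright members and of 0.687 in the 15 dimmer ones. The bright members include Rplp2, Rpl41, Rpl37a, Rps29 and Rps28, whose means were the 5 highest at 14.95, 14.94, 14.88, 14.83 and 14.81. The 5 lowest were Rpl27a at 9.49, Rps27 at 8.66, Rpl39 at 7.0, Rpl3l at 5.42 and Rps16 at 3.55. The probe set kept for Rps16, a core protein of the small subunit, therefore lay under the lower quartile of every array. Levels of different probe sets are not comparable as amounts of RNA, so these values place a member on the scale of the array and rank no genes.

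The stalk proteins, which recruit translation factors to the large subunit, changed little on the deposited scale, on probe sets near the top of the arrays. Rplp0 ranged over its 10 group means by 0.0563 and Rplp2 by 0.0427. The 3 Rplp2 arrays at 8 h all read 14.94, those at 24 h A-C 14.94, 14.95 and 14.96, and those at 72 h 14.94, 14.95 and 14.96. Rps3a1, of the small subunit, had the smallest range of all members, 0.0269. Rplp0, often used as a reference gene, read 14.59, 14.59 and 14.62 at 8 h and 14.63, 14.63 and 14.64 at 72 h. The ranges, and the values at 8 h and 72 h, span both array sets, so time and set cannot be told apart in them.

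**Figure D1:**
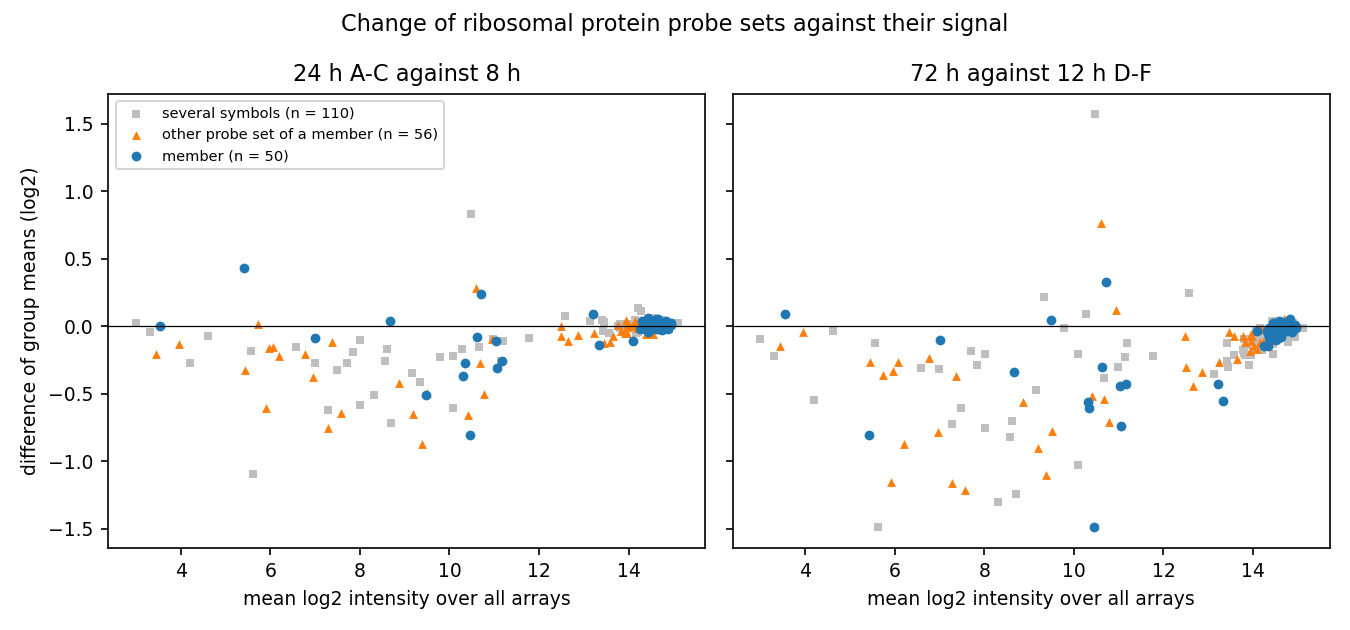
Difference of group means (log2, y axis) against mean log2 intensity over all arrays (x axis) for the 50 members, the 56 other probe sets of the same genes and the 110 probe sets that list several symbols, at 24 h A-C against 8 h (left) and 72 h against 12 h D-F (right). Probe sets of the members at 14 and above lie close to 0, and those below it spread more widely and mostly downwards, more so at 72 h. Probe sets that list several symbols reach from -1.09 to 0.83 on the left and from -1.49 to 1.57 on the right. On arrays centred again on the median of all genes each point would move down by 0.186 on the left and by 0.177 on the right.

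The early comparison asks how the members stood after 24 h against 8 h within the first array set. On the deposited scale most did not pass the test: 1 of 50 rose, 6 fell, and the median difference was -0.00. Over all 18193 genes 23.5% were called higher and 15.8% lower, with a median of -0.02. A gene was called at an adjusted p under 0.05 (limma on all 30 arrays, Benjamini-Hochberg over all genes, two-sided), and a change is a difference of log2 means. In bulk RNA, fewer cells of a type and less RNA per cell cannot be told apart.

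Rpl12, which helps form the stalk base, fell most. Its arrays read 11.15, 11.15 and 11.23 at 8 h and 10.10, 10.45 and 10.57 at 24 h A-C, and the groups did not overlap. The difference was -0.81 ± 0.09 (SE, n = 3 against 3; adjusted p = 7.23e-08 in limma), a linear ratio of 0.571. Rps25, a small subunit protein used by some viral internal ribosome entry sites, read 11.27, 11.28 and 11.32 at 8 h and 10.85 to 11.09 at 24 h A-C, a change of -0.31 ± 0.08 (adjusted p = 0.00221 in limma). Rpl14 fell by 0.28 (adjusted p = 0.0113 in limma). Neither gene's groups overlapped. No probe set that lists Rpl12, Rps25 or Rpl14 with other symbols was called in this comparison.

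Of the other early changes, Rps19bp1 fell by 0.36 (adjusted p = 0.000296) and Rpl7l1 by 0.26 (adjusted p = 0.00415). Rps27l fell by 0.11 (adjusted p = 0.033 in limma); without any of 5 of the 6 arrays compared, left out 1 at a time, its adjusted p lay between 0.063 and 0.11. Rpl3l, the paralogue of Rpl3 known from striated muscle, rose by 0.43 ± 0.13 (adjusted p = 0.0102 in limma). Its call was lost on arrays centred again on the median of all genes (0.25, adjusted p = 0.0935) and without array C of 24 h (adjusted p = 0.0505).

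The late comparison, 72 h against 12 h D-F, lies within the second array set. Here 1 of 50 members rose and 14 fell, with a median of -0.04; over all genes 26.2% were called higher and 34.5% lower, with a median of -0.09. Most falls were in the dimmer members: 11 of 15 fell and 1 rose, against 3 of 35 bright members that fell. All genes also differed by level. Of 3039 with a mean from 10 to 12, 1365 fell and 978 rose (77.1% called). Of 79 at or above 14, members included, 20 fell and 6 rose (32.9%). Among all genes 60.6% were called in either direction, and among the members 30%.

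Rpl12 again changed most. Its arrays read 11.14, 11.16 and 11.17 at 12 h D-F and 9.57, 9.69 and 9.76 at 72 h, with no overlap. The change was -1.49 ± 0.09 (SE, n = 3 against 3; adjusted p = 2.91e-13 in limma), a linear ratio of 0.357. It had reached 9.89 to 9.97 by 48 h and 9.67 to 9.70 by 60 h. The 2 probe sets that list Rpl12 with other symbols changed by -0.09 and -0.07 and were not called.

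Rps25 read 11.27, 11.28 and 11.33 at 12 h D-F and 10.37, 10.63 and 10.66 at 72 h, a change of -0.74 ± 0.08 (adjusted p = 8.6e-09 in limma). Rpl14 read 10.59, 10.61 and 10.73 and then 9.96, 10.03 and 10.12, a change of -0.61 ± 0.08 (adjusted p = 8.72e-07). Rpl37 read 11.07, 11.29 and 11.38 and then 10.76, 10.78 and 10.87, a change of -0.44 ± 0.09 (adjusted p = 0.000257). In none of these genes did an array at 72 h reach the lowest array at 12 h D-F. The probe set that lists Rps25 with other symbols changed by -0.09 and was not called. All 5 that list Rpl14 were called lower.

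Smaller falls were those of Rps27 by 0.34 and of Rps6, the substrate of S6 kinase, by 0.30 (adjusted p = 0.00337 and 0.000388 in limma). The probe set that lists Rps27 with other symbols changed by -0.03, and those that list Rps6 by -0.30 to -0.00; neither the 1 nor any of the 9 was called. Of the bright members, Rpl35 and Rpl27 fell by 0.15 each and Rpl8 by 0.10 (adjusted p = 0.00464, 0.00991 and 0.0234 in limma). With only the 6 arrays compared in the fit, those of Rpl35, Rpl27 and Rpl8 became 0.0572, 0.0711 and 0.17.

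**Figure D2:**
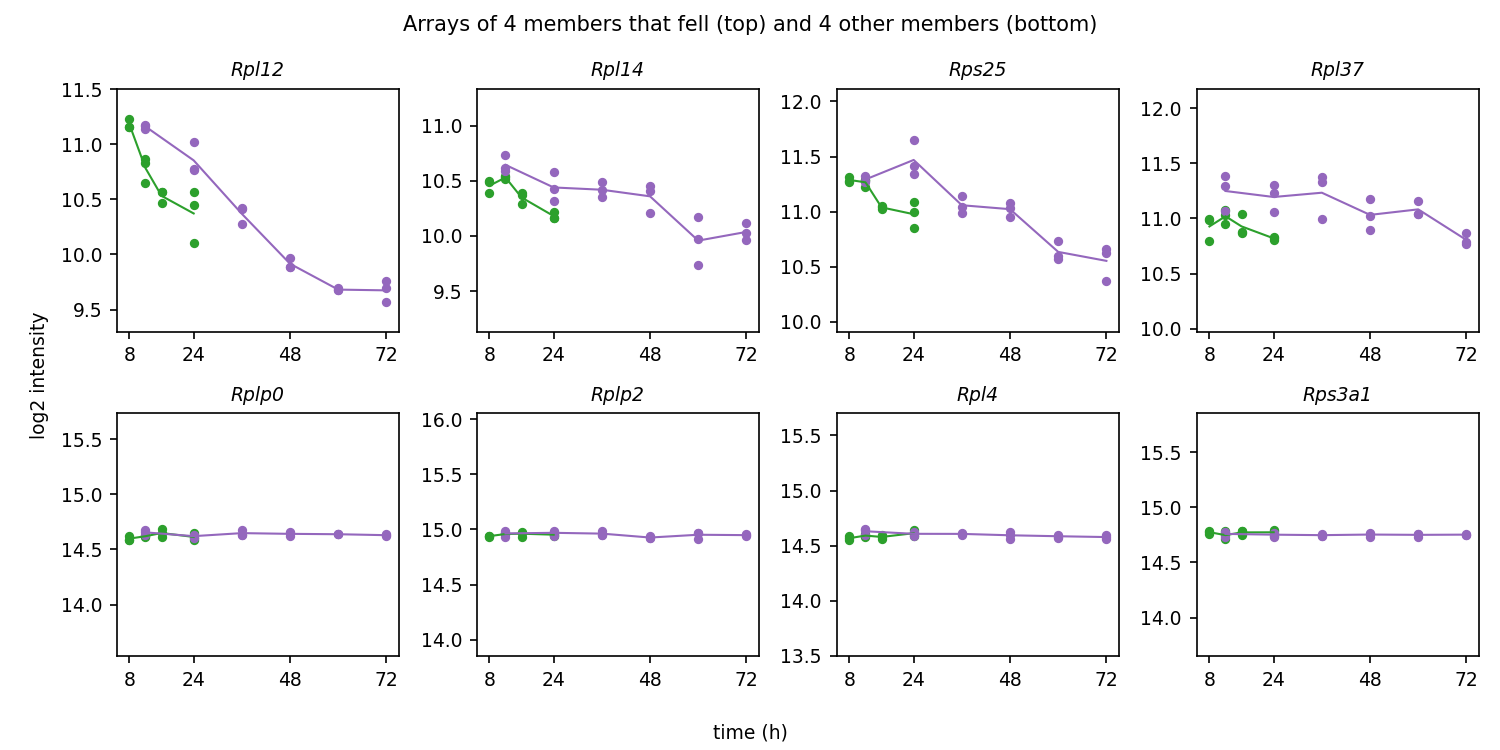
Log2 intensity (y axis, the same span in each panel) against time in hours (x axis) for Rpl12, Rpl14, Rps25 and Rpl37 (top) and Rplp0, Rplp2, Rpl4 and Rps3a1 (bottom). Points are single arrays on the kept probe sets, and lines join group means. Green marks the first array set (8 h, 12 h A-C, 16 h, 24 h A-C) and purple the second. Rpl12 ends at 9.57 to 9.76, and the lower 4 genes stay level on the deposited scale.

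Several members have a paralogue, a related gene copy whose protein can stand in its place or has a role of its own. Rpl22 and Rpl22l1 are such a pair. Rpl22l1 read 13.39, 13.48 and 13.50 at 12 h D-F and 12.95, 13.06 and 13.08 at 72 h, a fall of 0.43 (adjusted p = 4.47e-07 in limma) with no overlap. Rpl22 read 14.63 to 14.68 at 12 h D-F and 14.53 to 14.60 at 72 h; that difference of -0.08 was not called (adjusted p = 0.0834). In the first array set Rpl22l1 was higher at 16 h (13.44 to 13.47) than at 8 h (13.09 to 13.15), a difference that was not tested.

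Rps4l read 13.52, 13.55 and 13.67 at 12 h D-F and 12.90, 13.05 and 13.13 at 72 h. It fell by 0.56 ± 0.06 (adjusted p = 2.05e-08 in limma) and its groups did not overlap. The kept probe set of Rps4x, its X-linked relative, stayed between 14.56 and 14.66 on all 18 arrays of the second set. The other probe set of Rps4x was called lower in the late comparison. Rps27 fell late on its kept probe set, which had a mean of 8.66. Rps27l, a p53 target, read 14.08 to 14.17 at 12 h D-F and 14.08 to 14.12 at 72 h. The probe set at 14.20 that lists Rps27 with other symbols changed by -0.03 late, not called. Early it was called higher, by 0.14. No test of a difference between the genes of a pair was made, and a change near the top of the scale and one below it are not on equal terms.

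Rpl39l, known from male germ cells, was the 1 member that rose late. It read 10.65, 10.74 and 10.81 at 12 h D-F and 10.83, 11.03 and 11.33 at 72 h. The rise was 0.33 ± 0.13 (adjusted p = 0.0286 in limma). It was lost without array C of 72 h (0.19, adjusted p = 0.211), without array D or F of 12 h (0.29 and 0.33, adjusted p = 0.095 and 0.0557), and on arrays centred again on the median of all genes (0.15, adjusted p = 0.233). Its partner Rpl39 was not called (-0.10, adjusted p = 0.184). Of 5 male germ cell markers, 1 was higher and 2 were lower in the same comparison; their part in the rise was not tested.

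Rpl3l rose early, as given above, and was lower late. It read 5.46, 5.48 and 5.48 at 12 h D-F and 4.27, 4.75 and 4.98 at 72 h, with no overlap (adjusted p = 9.12e-06 in limma). Its mean of 4.67 at 72 h was under the lower quartile of the arrays, so the size of that change is not given. Of 4 skeletal muscle markers, 1 was lower at 24 h A-C and all 4 were lower at 72 h; their part in the values of Rpl3l was not tested. Rpl3 itself is not among the members.

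Rpl7l1, a nucleolar relative of Rpl7 that acts in ribosome assembly, moved down and up within the first array set. It read 11.30 to 11.39 at 8 h, 10.88 to 10.93 at 12 h A-C, 10.41 to 10.45 at 16 h and 11.04 to 11.11 at 24 h A-C. The arrays of these 4 groups did not overlap. The step from 8 h to 12 h A-C was -0.43 (adjusted p = 0.000125 in limma). In the second set it read 11.55 to 11.74 at 12 h and 11.11 to 11.31 at 72 h, a fall of 0.43 (adjusted p = 8.24e-06). Its partner Rpl7 stayed between 14.36 and 14.47 on all arrays.

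Rps19bp1 has an Rps symbol but encodes a nucleolar protein that binds Rps19, not a ribosomal protein. It read 10.66, 10.74 and 10.80 at 12 h D-F and 10.01, 10.23 and 10.27 at 72 h, a fall of 0.56 (adjusted p = 3.59e-07 in limma) with no overlap. It and Rpl7l1 fell in both windows.

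**Figure D3:**
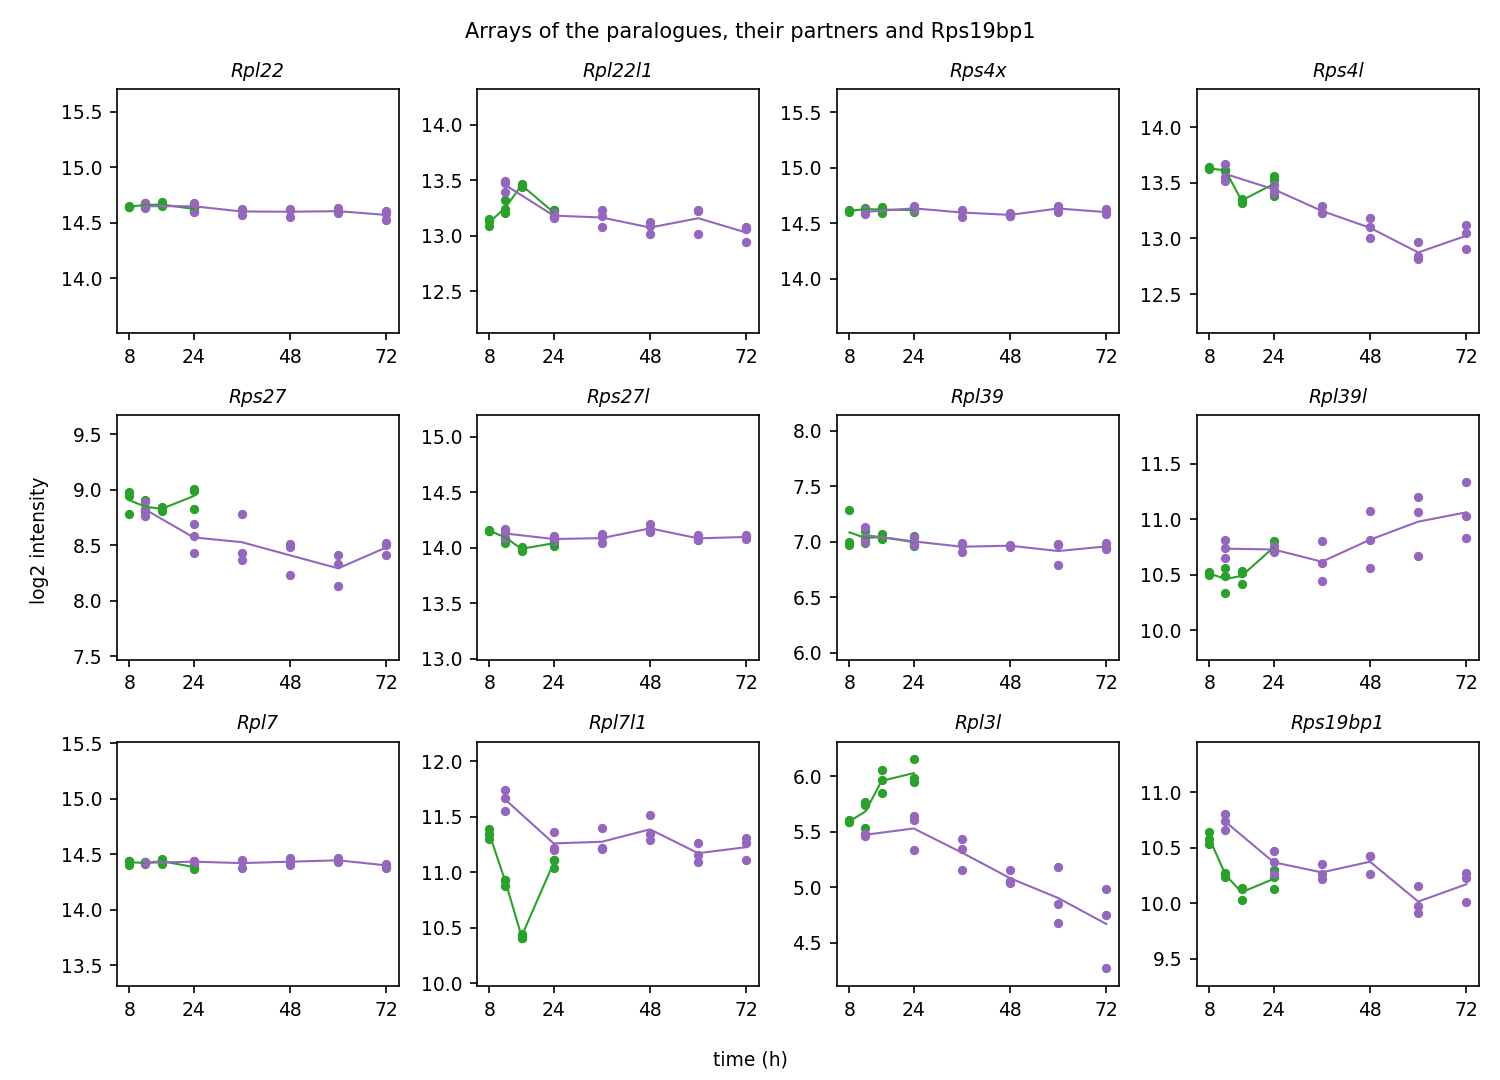
Log2 intensity (y axis, the same span in each panel) against time in hours (x axis) for 5 pairs of partner and paralogue, and for Rpl3l and Rps19bp1. Points are arrays, lines join group means, and green and purple mark the first and second array sets. Rpl22l1, Rps4l and Rpl7l1 move while the kept probe sets of Rpl22, Rps4x and Rpl7 lie flat near 14.4 to 14.7.

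Over shorter steps few members passed. Some of these steps pass over a sampled time, and no step to or from 16 h, 36 h or 60 h was tested. From 8 h to 12 h A-C 0 rose and 3 fell (all genes: 12.9% and 6.67%): Rpl12, Rpl7l1 and Rps19bp1; 2 members rose and 3 fell at an unadjusted p under 0.05. From 12 h to 24 h A-C 1 rose and 3 fell (17.9% and 14.3%), with Rpl3l rising and Rpl12, Rpl14 and Rps25 falling. From 12 h to 24 h D-F 0 rose and 5 fell (16% and 14.8%): Rpl12, Rpl22l1, Rpl7l1, Rps19bp1 and Rps27; 1 rose and 7 fell at an unadjusted p under 0.05.

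From 24 h D-F to 48 h 0 rose and 5 fell (16% and 19.8%), which were Rpl12 by 0.94, Rpl3l, Rps25, Rps4l and Rpl8; 1 rose and 5 fell at an unadjusted p under 0.05. From 48 h to 72 h 0 rose and 3 fell (9.74% and 5.96%): Rps25, Rpl14 and Rpl3l. Without array B of 48 h, or array A of 72 h, 1 member was called there. Rpl27a, whose arrays varied widely within groups, was not called in any of these steps. In the step to 48 h all 16 fibroblast markers listed further on were higher; their part in these values was not tested.

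Over all arrays, with letters and sets pooled, 24 h against 8 h gave 0 higher and 4 lower members (17.3% and 14.9% of all genes), and 1 higher and 6 lower with the array set as a block. For 72 h against 8 h the counts were 1 and 15 (23.7% and 34.6%), and 1 and 9 with the block. All 8 h arrays are of the first set and all 72 h arrays of the second.

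At 12 h and 24 h the A-C and D-F arrays share time and treatment labels and still differed. At 12 h, 4 members were higher in D-F and 8 lower (all genes: 17.2% and 21.7%). On the kept probe sets all 8 lower ones were bright small subunit genes, out of 24 Rps members, while 0 of 26 Rpl members were lower. At an unadjusted p under 0.05, 1 Rpl member was lower. Rps15 differed by -0.20, Rpsa (the laminin receptor precursor, a small subunit protein) by -0.17, Rps3 by -0.17, Rps10 by -0.16, Rps19 by -0.15, Rps26 by -0.14, Rps14 by -0.13 and Rps18 by -0.11. Their adjusted p-values in limma ran from 0.00103 (Rps3) to 0.0492 (Rps18). The 110 probe sets that list several symbols did not divide in this way, with 10 higher and 9 lower in D-F. Lower were 1 of the 2 that list Rpl12, 2 of the 5 that list Rpl14 and 1 of the 3 that list Rpl37. Higher were 1 of the 2 that list Rps16, 1 of the 9 that list Rps6 and the 1 that lists Rpl11.

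Rps3, which lies at the mRNA entry channel, shows the pattern. It read 14.69, 14.70 and 14.72 at 12 h A-C and 14.50, 14.54 and 14.55 at 12 h D-F. It read 14.68 to 14.73 on all 12 arrays of the first set and 14.45 to 14.57 on all 18 of the second, with no overlap. Rpsa read 14.69 to 14.75 at 12 h A-C and 14.51 to 14.59 at 12 h D-F, also with no overlap.

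These differences are small, and several depend on how the arrays are treated. On arrays centred again on the median of all genes 3 Rps members were lower and 1 higher, and 7 Rpl members were higher; after quantile normalisation again, 8 Rps members were lower and 1 higher. With only the groups compared in the fit, Rps10, Rps14, Rps18, Rps19 and Rps26 were not called (adjusted p from 0.0638 to 0.177). Leaving out any array of 12 h ended the call of Rps18 (adjusted p from 0.0563 to 0.139), and leaving out any but array A or E ended that of Rps14 (0.0716 to 0.125). On probe sets with no letter before _at, which cover 14 of the Rps members, 4 were lower and 3 higher; there Rps10 was at 0.24 and Rps18 at 0.16, and on the mean of its probe sets Rps18 was at 0.15, against the direction of their kept probe sets.

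The 4 members higher in D-F at 12 h were Rpl7l1 by 0.74, Rps19bp1 by 0.48, Rpl12 by 0.38 and Rpl22l1 by 0.20 (adjusted p = 1.06e-08, 1.21e-05, 0.00109 and 0.006 in limma). At 24 h, 4 members were higher in D-F and 7 lower (13.3% and 20.4% of all genes). Rps25 by 0.49, Rpl12 by 0.48, Rpl37 by 0.38 and Rpl14 by 0.26 were higher. Rpl3l by -0.50, Rps27 by -0.37, Rps3 by -0.18, Rps15 by -0.16, Rps10 by -0.16 and Rps26 by -0.11 were among the lower ones, with Rpsa at -0.10 (adjusted p = 0.0496 in limma). The calls of Rpsa, Rps10, Rps15, Rps26 and Rpl14 each ended without at least 1 of the 6 arrays. Probe sets that list several symbols read otherwise in part. The 2 that list Rpl12 were at -0.15 to -0.08 at 12 h and -0.14 to -0.06 at 24 h, with 1 called lower each time. At 24 h those listing Rps25 (-0.01), Rpl14 (-0.04 to -0.00) and Rps27 (-0.04) were not called. Of the 3 that list Rpl37, 1 was higher. Extraembryonic endoderm markers also differed between the letters, with 5 of 8 higher and 0 lower in D-F at 12 h, and 6 higher and 1 lower at 24 h; their part in these values was not tested. The letters, the array set and any difference between cultures cannot be told apart.

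**Figure D4:**
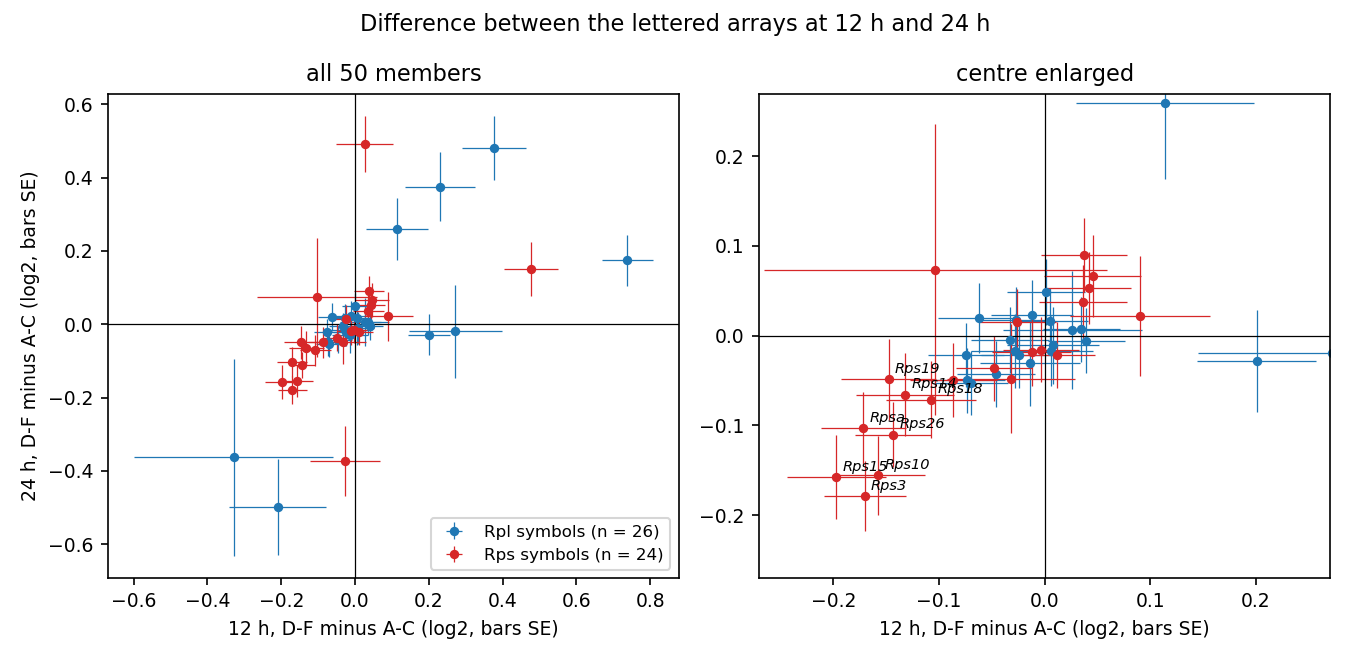
D-F minus A-C at 24 h (y axis) against the same difference at 12 h (x axis), in log2 with bars of 1 SE, for 26 Rpl (blue) and 24 Rps (red) members; the right panel enlarges the centre and names 8 Rps members. Those 8 lie to the lower left, at -0.20 to -0.11 on the x axis; on arrays centred again on the median of all genes the points move up and right by 0.063 and 0.066, and 3 Rps members remain called lower at 12 h.

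The change from 12 h to 24 h was itself compared between the letters. It differed in 4 members, 1 higher and 3 lower in D-F (8.59% and 10.6% of all genes). Rpl7l1 fell by 0.39 in D-F and differed by 0.17, upwards and not called, in A-C (difference -0.56, adjusted p = 0.000201 in limma). Rps19bp1 fell by 0.36 in D-F, against -0.04 in A-C (difference -0.33, adjusted p = 0.0278), and Rpl22l1 by 0.27 against -0.04 (difference -0.23, adjusted p = 0.0461). Rps25 changed by 0.18 in D-F, not called, and fell by 0.29 in A-C (difference 0.47, adjusted p = 0.00344). The probe set that lists Rps25 with other symbols differed between the letters by -0.07 at 12 h and -0.01 at 24 h, neither called. Without array D of 12 h, array A or C of 24 h A-C, or array E of 24 h, 2 members were called.

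Called changes were spread unevenly over the signal of the probe sets, in the members and in all genes. All 106 probe sets of the members were fitted with every other probe set of 1 symbol. At 72 h against 12 h D-F, 8 of 54 probe sets at 14 or above were lower (median -0.03), 8 of 17 between 12 and 14 (-0.12), 10 of 13 between 10 and 12 (-0.52; 2 were higher) and 14 of 22 under 10 (-0.37). Of all probe sets in these bands, members included, 25.7%, 46.7%, 44.2% and 27.7% were lower and 5.94%, 21.6%, 30.6% and 22.4% higher. At 24 h A-C against 8 h the members' lower counts in the same bands were 0, 1, 8 and 8, against 9.9%, 25.3%, 24.3% and 12.1% of all. In this fit over probe sets Rps27l was not called early on its kept probe set (adjusted p = 0.0519 in limma). These bands were set after the values were seen.

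Single genes show the same spread. The 6 probe sets of Rps10 include 4 at 14.15 to 14.63, whose late differences ran from -0.12 to 0.02, and 1 at 7.58 that fell by 1.22. The kept probe set of Rpl35 changed by -0.15 late and 1 at 7.29 by -1.16. Rpl41 was flat on its brightest probe set (14.94, 0.01) and fell by 0.90 and 0.77 on probe sets at 9.19 and 9.50. Rpl22 did the opposite on 1 probe set at 10.59, which rose by 0.76 while another at 13.64 fell by 0.24. Whether a dim probe set reads the same transcript as a bright one was not tested.

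Brightness did not go with flatness in every gene. Besides the 35 bright members, 44 other genes had a mean of 14 or above, with a median level of 14.27 against 14.59. At 72 h against 12 h D-F, 6 of them were higher and 17 lower (52.3% called), with a median absolute change of 0.117, against 3 of 35 bright members and 0.0309. Their changes reached from -0.39 to 0.74.

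Probe sets that list several symbols give another reading of 15 members. The 2 that list Rpl12, at 14.01 and 14.14, changed by -0.09 and -0.07 late and were not called, against -1.49 on the kept probe set. That listing Rps25, at 13.94, changed by -0.09 and was not called. All 5 that list Rpl14, at 13.41 to 14.14, were lower late, by 0.15 to 0.26. Over the 110 such probe sets 3 were higher and 36 lower late, and 2 and 15 early. Of all 18193 genes 26.2% were higher and 34.5% lower late, and 23.5% and 15.8% early. The share over all probe sets of that fit is not given. Early, the probe sets that list Rpl12 changed by -0.02 to 0.02, that listing Rps25 by 0.01 and those listing Rpl14 by -0.01 to 0.05, and none was called. The falls of Rpl12 and Rps25 in both windows, and the early fall of Rpl14, were thus called on 1 probe set each.

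The scale of the arrays bears on all of these counts. On the deposited scale the median of all gene values on an array rose by 0.186 from 8 h to 24 h A-C and by 0.177 from 12 h D-F to 72 h. That array median was 0.066 and 0.063 lower in D-F at 12 h and 24 h. With arrays centred on that median, 0 members were higher and 45 of 50 lower at 24 h, and 0 and 47 at 72 h. Centring moves every gene of an array by the same amount. On that scale 59 and 60 of 60 ribosome biogenesis genes, listed below, were lower at 24 h and 72 h. So were 68 and 71 of 76 mitochondrial ribosomal protein genes, while 15 of 16 fibroblast markers were higher at 72 h. The share of all genes called on that scale is not given. With quantile normalisation over all genes the members' counts were 1 and 7 at 24 h, and 1 and 14 at 72 h. Most members were thus level on the deposited scale and lower relative to the array median. The median change on the deposited scale was -0.00 early and -0.04 late over the members, and -0.02 and -0.09 over all genes. The median over all 50 members, 35 of them bright, thus fell no more than that over all genes. Over the 15 dimmer members the median was -0.11 early and -0.43 late. Over all genes with a mean from 10 to 12 it was 0.02 and -0.09.

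Among genes that make ribosomes, falls were called in most. Of 60 measured genes of ribosome biogenesis and rRNA transcription (62 listed), 0 rose and 49 fell early (median -0.42), and 0 rose and 59 fell late (median -0.71). Taf1d, of the RNA polymerase I factor SL1, fell by 0.93 early; Nolc1, a nucleolar chaperone, changed by -0.75 early and -1.16 late. Ddx21, a nucleolar helicase, fell by 1.27 late. At 12 h 40 were higher and 1 lower in D-F.

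The 76 mitochondrial ribosomal protein genes showed 1 rise and 48 falls early (median -0.22) and 4 rises and 67 falls late (median -0.40). Mrps18b fell by 1.17 and Mrpl1 by 1.13 late. Of 24 translation factors and other genes with a 5' TOP, 0 rose and 8 fell early, and 0 rose and 16 fell late (medians -0.05 and -0.18), with Hnrnpa1, an RNA-binding protein, at -0.39 and -0.52; on arrays centred again, 22 and 24 fell. Fau, a fusion gene that yields a small subunit protein, was the 1 of 4 genes under other symbols that was measured, and was not called early (0.03) or late (-0.08).

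Of 22 regulators in the mTOR, S6 kinase and Myc list, 3 rose and 6 fell early, and 5 rose and 7 fell late; on arrays centred again, 2 rose and 12 fell early, and 3 rose and 16 fell late. Myc, a driver of ribosome synthesis, fell by 1.28 early and 0.64 late, and Larp1, which binds 5' TOP mRNAs, fell by 0.69 late. Mycl rose by 0.65 and 0.90. Of 13 genes of the p53 response, 6 rose and 0 fell early, and 10 rose and 1 fell late, with Cdkn1a, a cell cycle inhibitor, up by 0.64 and 1.84; on arrays centred again, 4 rose and 1 fell early, and 8 rose and 2 fell late.

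**Figure D5:**
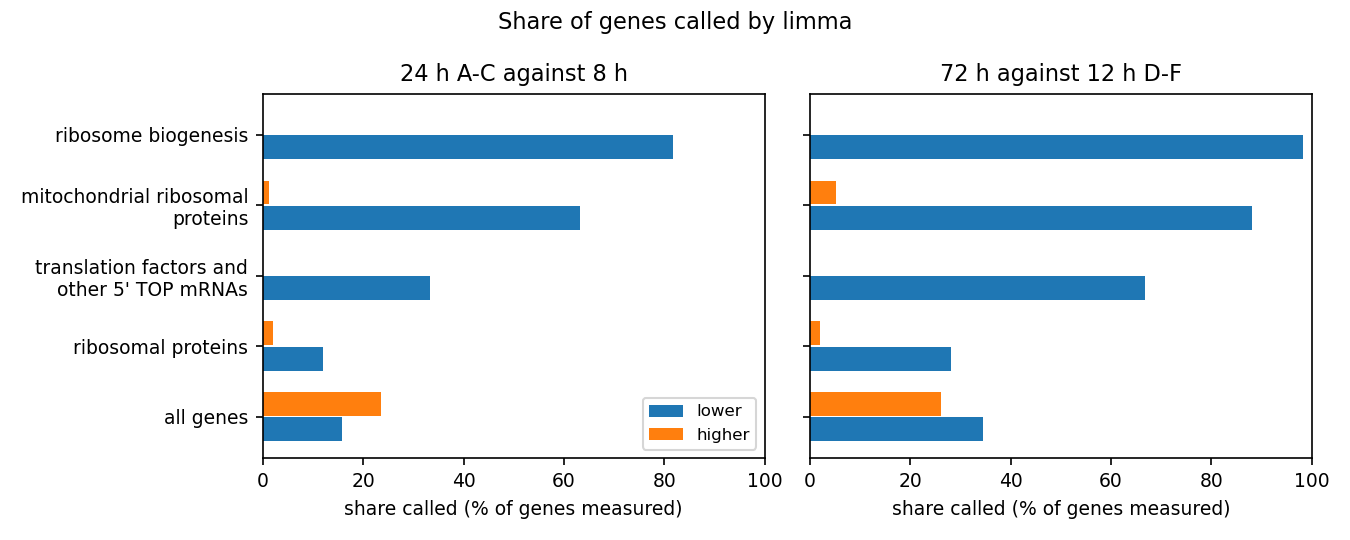
Share of measured genes called by limma (x axis, %), lower in blue and higher in orange, for all genes, the 50 ribosomal protein members and 3 related lists, at 24 h A-C against 8 h (left) and 72 h against 12 h D-F (right). Of the members 6 and 14 of 50 were lower, against 49 and 59 of 60 biogenesis genes. On arrays centred again on the median of all genes the lower counts are 45 and 47 for members and 59 and 60 for biogenesis genes.

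Markers of feeder fibroblasts moved in the same comparisons. Of 16, 3 were higher and 0 lower at 24 h A-C, and 15 were higher and 0 lower at 72 h. Their mean log2 level was 8.08 to 8.85 at 12 h D-F and 10.14 to 10.87 at 72 h. The sum over the list was 129 to 142 and then 162 to 174; at 8 h it was 128 to 132 and at 24 h A-C 136 to 138. At 12 h 3 were higher and 1 lower in D-F. On a log2 intensity scale no marker has a true 0. Of 8 endoderm markers 6 rose and 1 fell late, and of 5 neural markers 4 rose. Their part in the members' values was not tested.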

How the data were processed

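Total RNA of 30 samples was hybridised to 1 Affymetrix array each. The authors deposited log2 intensities per probe set, already normalised between arrays; the background correction, probe summary and normalization are not given in the sources used here, and limma 3.8.3 appears in the submitters' processing notes. Of 45101 probe sets, 64 controls, 9160 with no symbol and 932 with several symbols were left out; 34945 remained, and the brightest per gene gave 18193 genes. No detection calls, counts or filter were used, and 3 arrays per group limit the precision. Probe sets were named from the platform annotation; all 50 members matched a RefSeq gene.

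A linear model with 10 groups (limma 3.58.1, R 4.3.3, empirical Bayes) was fitted to all genes, and its calls were tested on simulated data. Named in each of the 4 main comparisons were up to 6 called rises and 6 called falls among members without overlap, then paralogues, stalk proteins, extremes of level, members with opposed probe sets, and up to 4 genes of each list. The members, lists, comparisons and naming rule were chosen with earlier results of these data known; the splits by level, the other bright genes, and the lists on other scales were added after the data were seen. The letters were tested as pairs: deviations of same-lettered arrays correlated at 0.17 to 0.41 in 72 h against 48 h, and at 0.1 or less in at least 1 pair of the other comparisons that share letters. Alternatives covered scale, filter, probe set choice, arrays fitted, weights, variance prior, blocks and each array left out. No protein sequences were used.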

Additional observations from a re-analysis of the deposited data

Results flagged for a closer look

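In 4 of 50 members the change from 12 h to 24 h differed between the D-F and the A-C arrays by a test of that difference in limma. Of all genes, 8.59% were called higher and 10.6% lower in that test. The change in D-F minus that in A-C was -0.56 for Rpl7l1, -0.33 for Rps19bp1, -0.23 for Rpl22l1 and 0.47 for Rps25, in log2. For Rps25 this rests on 1 probe set. That listing Rps25 with other symbols differed between the letters by -0.07 at 12 h and -0.01 at 24 h, neither called. The letters and the array set cannot be told apart.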

How the results depend on the processing

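Counts are of members called out of 50. Centring moves all genes of an array by the same amount, and the share of all genes called on that scale is not given. Centring arrays on the median of all genes gave 45 at 24 h A-C against 8 h (7 as deposited), 47 at 72 h against 12 h D-F (15), 8 at 12 h A-C against 8 h (3), 25 at 24 h against 12 h A-C (4), 16 at 24 h against 12 h D-F (5) and 13 at 72 h against 48 h (3). In that order, averaging a gene's probe sets gave 12, 25, 5, 7 and 9, and 10 at 48 h against 24 h D-F (5). Probe sets with no letter before _at (27 members) gave 12 at 24 h A-C against 8 h and 8 each at 12 h A-C against 8 h, 24 h against 12 h A-C, 24 h against 12 h D-F and 48 h against 24 h D-F. At 72 h against 48 h, quantile normalisation and a variance prior with a trend gave 6 each, leaving out dim genes 5 and only the groups compared 1; the last gave 7 at 24 h D-F against A-C (11). Array weights gave 5 at 12 h A-C against 8 h and 8 at 24 h against 12 h D-F, where the trend also gave 8. The replicate block could be fitted only where the groups share letters; it gave 6 at 24 h against 12 h D-F (5) and 3 at 72 h against 48 h, ended no named call at 24 h A-C against 8 h, and moved no count by over 1.5 times. With the array set as a block, 24 h and 72 h against 8 h gave 7 and 10 (4 and 16). Directions that turned were these: Rps18 at 12 h D-F against A-C was 0.15 on the mean of its probe sets and 0.16 on those with no letter, and Rps10 on the latter was 0.24 at 12 h and 0.33 at 24 h. Leaving out 1 array gave 1 to 4 at 72 h against 48 h and 2 to 4 for the change between letters; the other counts stayed within 1.5 times. Of the named calls, 356 values kept their call over the alternatives, 39 lost it and 4 turned; with 1 array left out 235 kept it and 35 lost it. The cause was not tested. Values near the top of the array scale, and under its lower quartile, limit what Rpl3l, Rps16 and the 35 bright members can show.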
